A study of Mus musculus with 20 samples.

Results

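Intercalated cells are the acid-base cells of the collecting duct and connecting tubule, and 10 genes that mark them were followed here through the kidneys of Alport mice. They are 4 subunits of the vacuolar H+-ATPase (Atp6v1b1, Atp6v1g3, Atp6v0a4 and Atp6v0d2), 3 anion exchangers (Slc4a1, Slc26a4 and Slc4a9), the transcription factor Foxi1, and the ammonia transporters Rhbg and Rhcg. The genes were chosen by name, as known markers of the cell type, and with earlier results of these data known. They make up 10 of the 47069 genes in the count table. All 10 passed the filter on low counts that left 17622 genes to test.

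RNA-seq of whole kidney was done in 20 male mice, labelled 129SJ x C57Bl/6J and named B6;129SvJ F1 in the study's methods, all killed at 15 weeks of age. The WT group held 5 wild-type mice, which received no injection and no drug. The other mice lacked Col4a3 in every cell, which removes a chain of the collagen IV of the glomerular basement membrane and is a model of Alport syndrome. From 5 weeks of age, 6 of these Col4a3-/- mice received weekly subcutaneous PBS (Veh), 6 received weekly subcutaneous lademirsen, an oligonucleotide that blocks miR-21, at 50 mg/kg (Anti-miR-21), and 3 received ramipril, an inhibitor of angiotensin-converting enzyme, at 11 mg/L in the drinking water (ACEi). Per the study's methods the ACEi mice were also injected with PBS each week. Their dose is that of the labels, while the deposited library table names 4 mg/kg for the same mice. Veh and WT differed in genotype and in injection together. Deposited counts per mouse ran from 28474301 to 29479629.

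The labels name kidney as the tissue but describe extraction from adipose tissue, so tissue markers were read first. Umod, made by the thick ascending limb, was between 1796 and 5719 CPM (counts scaled to a common library size) in all 20 mice, and Slc34a1, the phosphate transporter of the proximal tubule, between 788 and 9932 CPM. The adipocyte gene Adipoq was at most 33.1 CPM. The 5 adipocyte markers summed to over 100 CPM in 4 mice, which were A1 (410.1 CPM), A4 (366 CPM) and A9 (351 CPM) of Veh and A12 (224 CPM) of Anti-miR-21, and counts of the 10 genes are given below with and without these mice. Sequencing used 2 flow cells, here called A (13 libraries) and B (7 libraries). Flow cell B held 2 of 5 WT, 2 of 6 Veh, 1 of 6 Anti-miR-21 and 2 of 3 ACEi mice.

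An intercalated cell pumps protons with a vacuolar H+-ATPase that carries cell-specific subunits beside those found in all cells. The alpha type secretes acid into the urine and returns bicarbonate to the blood through AE1, the product of Slc4a1. The beta type secretes bicarbonate through pendrin, the product of Slc26a4, and carries AE4, the product of Slc4a9. Foxi1 is the transcription factor required for both types, and Rhbg and Rhcg move ammonia across the basolateral and apical membranes of collecting duct cells.

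Foxi1 belongs to the forkhead family, so promoters of the 10 genes were searched for forkhead core letters. RefSeq promoters (build GRCm38.p6) were at hand for 6 of the 10 genes, and the 250 bases before the annotated start were read on both strands. TGTTTAC or its reverse complement GTAAACA was in 1 of the 6, Atp6v1b1, 98 bases before the start, and in 3.17% of 32851 promoters of the same length. The shorter TGTTT or AAACA, which lies within the longer motif, was in 4 of the 6 and in 46.4% of all promoters. The 3 promoters below are shown because their genes span the pump and the beta-cell exchanger, with every match in capitals, all written 5′ to 3′ on the strand of the gene.
Atp6v1b1, chr6:83742767-83743016, plus strand: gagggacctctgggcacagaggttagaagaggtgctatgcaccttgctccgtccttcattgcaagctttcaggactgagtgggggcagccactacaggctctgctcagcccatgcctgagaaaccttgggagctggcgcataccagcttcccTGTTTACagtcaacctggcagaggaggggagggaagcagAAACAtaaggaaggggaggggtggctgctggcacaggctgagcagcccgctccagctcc
Atp6v1g3, chr1:138273488-138273737, plus strand: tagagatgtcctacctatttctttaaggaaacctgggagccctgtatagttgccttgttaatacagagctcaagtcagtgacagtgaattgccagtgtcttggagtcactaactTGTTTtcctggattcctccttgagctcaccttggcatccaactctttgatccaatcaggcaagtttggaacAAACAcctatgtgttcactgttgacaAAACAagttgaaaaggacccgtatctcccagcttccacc
Slc26a4, chr12:31559985-31560234, minus strand: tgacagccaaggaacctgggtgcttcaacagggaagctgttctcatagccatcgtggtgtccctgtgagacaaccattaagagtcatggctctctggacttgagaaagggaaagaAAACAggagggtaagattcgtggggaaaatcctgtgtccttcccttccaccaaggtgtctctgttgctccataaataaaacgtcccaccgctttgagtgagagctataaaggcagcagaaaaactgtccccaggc
The Atp6v1g3 matches began 136, 65 and 39 bases before the start, the second Atp6v1b1 match 59 bases before it, and the Slc26a4 match 135 bases before it. Foxi1 itself held 1 match, and the Atp6v0a4 and Rhcg windows held neither motif. A match is a run of letters in the window and not a bound site.

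In Veh kidneys all 10 genes were lower than in WT on the TMM scale used here, Atp6v0d2 turning the other way under library totals. Slc4a1 was lowest relative to WT at 16.9% of its WT mean CPM, followed by Slc26a4 at 24.3% and Rhbg at 28.3%, and Atp6v0d2 lost least at 75.0%. With edgeR's quasi-likelihood test and Benjamini-Hochberg adjustment over all genes, 10 of 10 fell, against 34.0% of all genes tested that were called lower and 73.0% called in either direction. The median log2 fold change of the 10 genes was -1.22, and that of the whole table was 0.07. Without the mice high in adipocyte markers 10 of 10 were still called lower, beside 32.2% of all genes, with a median of -1.05 (0.05 over all genes) and Slc4a1 at -2.12. In 9 of the 10, no Veh mouse reached the lowest WT mouse, and 26.1% of all genes were separated in that direction. In whole kidney, fewer intercalated cells, less RNA per intercalated cell and a change in RNA of these genes from other cells cannot be told apart.

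**Figure D1:**
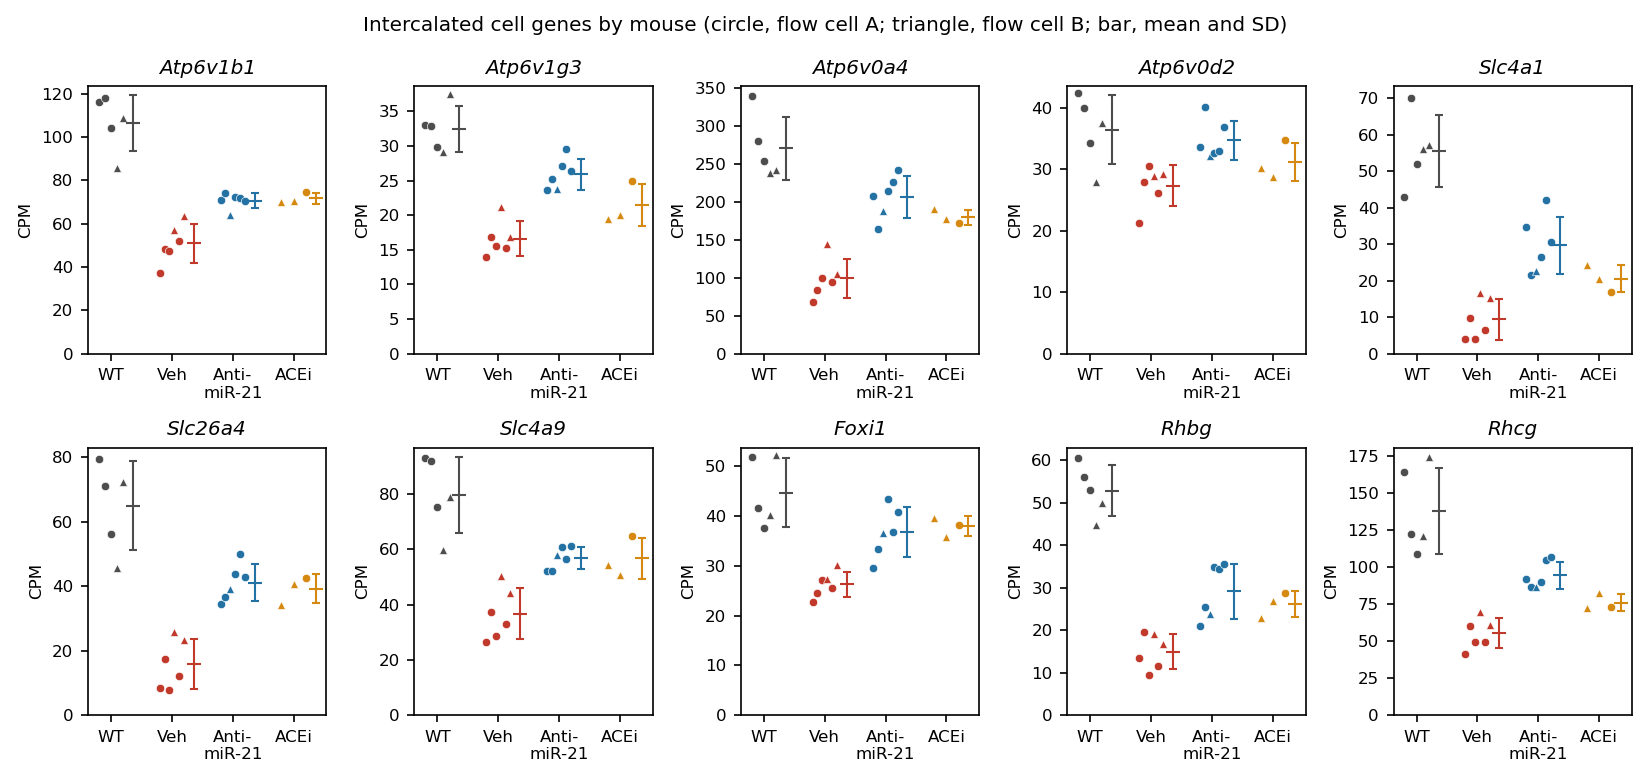
Each panel plots 1 gene, with TMM-scaled CPM on a linear vertical axis from 0 and the 4 groups along the horizontal axis. Points are mice (circles, flow cell A; triangles, flow cell B) and the bars beside them give the mean and SD (n = 5, 6, 6 and 3). All 10 genes have their lowest group mean in Veh, and Atp6v0d2 is the gene whose Veh and WT mice overlap.

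The scale between libraries matters for these values. CPM here used the TMM factors of edgeR, which were 0.77 to 0.85 for WT and 1.12 to 1.26 for Veh libraries. Under library totals alone the Veh against WT median over the whole table moved from 0.07 to 0.65 on the log2 fold scale, and the share of calls that were higher moved from 53.4% to 81.2%. The median log2 fold change of the 10 genes was then -0.64, and 8 of the 10 were called lower, beside 15.2% of all genes. A change of scaling shifts all genes nearly alike, so the distance of the 10 genes from the median of all genes (-1.29) is the same on either scale by construction. Foxi1 was not called on that scale (log2 fold change -0.18, adjusted p = 0.0705).

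Of the pump subunits, Atp6v1b1 encodes the B1 subunit of the catalytic V1 sector. The WT mice A3, A6, A14, A17 and A18 had 116, 118, 104, 85.5 and 109 CPM, and the 6 Veh mice ran from 37.1 to 63.6 CPM with a median of 50.2. The lowest WT mouse lay above the highest Veh mouse, and Atp6v1b1 fell 2.09-fold (log2 fold change -1.06, SE 0.10, adjusted p = 1.0e-08). Anti-miR-21 mice ran from 63.9 to 74.2 CPM with a median of 71.2, and the 3 ACEi mice had 70.0, 70.5 and 74.7 CPM. Both treated groups lay above every Veh mouse and below every WT mouse, with A10 of Anti-miR-21 (63.9 CPM) within 1 CPM of the highest Veh mouse, A20 (63.6 CPM).

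Atp6v0a4 encodes the a4 subunit of the membrane V0 sector, and mutations in it and in ATP6V1B1 cause inherited distal renal tubular acidosis. WT mice had 339.6, 280.2, 254, 238 and 242 CPM in the same order, and Veh mice ran from 67.9 to 145 CPM with a median of 97.6. The groups were apart, and Atp6v0a4 fell 2.73-fold (log2 fold change -1.45, SE 0.15, adjusted p = 1.9e-08). Anti-miR-21 mice (164 to 242 CPM) and ACEi mice (172, 177 and 191 CPM) lay above every Veh mouse. On GRCm38 the gene spans chr6:38048483-38124586 on the minus strand and shares exons with Tmem213 on the other strand and with D630045J12Rik on its own strand, so reads there could be counted for either. Tmem213 (log2 fold change -0.79, SE 0.08, adjusted p = 5.2e-08) and D630045J12Rik (-0.88, SE 0.10, adjusted p = 6.6e-08) also fell in Veh, and both rose in Anti-miR-21 (0.47 and 0.65) and in ACEi (0.35 and 0.66) against Veh.

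Atp6v1g3 encodes a kidney form of the G subunit of the pump's stalk. WT mice had 33.0, 32.9, 29.9, 29.1 and 37.5 CPM, and Veh mice ran from 14 to 21.2 CPM with a median of 16.1. Atp6v1g3 fell 1.96-fold with no overlap (log2 fold change -0.97, SE 0.10, adjusted p = 2.0e-08). Atp6v0d2, the d2 subunit of the V0 sector, had 42.5, 40.0, 34.3, 28.0 and 37.5 CPM in WT and 21.3 to 30.6 CPM in Veh. The WT mouse A17 lay below 3 of the Veh mice. Atp6v0d2 fell 1.33-fold on the TMM scale (log2 fold change -0.41, SE 0.10, adjusted p = 0.00105), while under library totals its log2 fold change was 0.17 (SE 0.11, adjusted p = 0.136) in the opposite direction.

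Atp6v0d2 is also a gene of osteoclasts and of some macrophages. The 6 macrophage markers summed to 141 ± 5.11 CPM in WT (SD, n = 5) and to 786 ± 52.3 CPM in Veh (SD, n = 6), and 6 of 6 rose. Their most abundant gene in Veh was C1qa at 246 CPM. Of 6 genes of osteoclast-like and lipid-laden macrophages, 5 rose, among them Gpnmb (log2 fold change 4.93, SE 0.52, adjusted p = 3.7e-08), Trem2 (4.81, SE 0.32) and Mmp12 (4.74, SE 0.33), and Acp5 fell (-0.56, SE 0.10), a call lost under library totals. Their sum went from 682 ± 28.8 CPM to 11931 ± 1781 CPM, most of it Spp1, which tubule cells also make. The part of macrophage RNA in the Atp6v0d2 value was not tested.

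Among the exchangers, Slc4a1 had the lowest Veh level relative to WT. WT mice had 42.9, 70.1, 51.9, 56.0 and 57.3 CPM. In Veh the mice A1, A4, A9, A16, A19 and A20 had 4.09, 9.86, 3.86, 16.6, 6.57 and 15.3 CPM, a 4.29-fold range within the group, and none came near WT. Slc4a1 fell 5.95-fold (log2 fold change -2.57, SE 0.31, adjusted p = 2.1e-07). Its log2 fold change was -3.17 on flow cell A alone and -1.83 on flow cell B alone. Anti-miR-21 mice ran from 21.5 to 42.0 CPM with a median of 28.6, and ACEi mice had 24.3, 20.4 and 16.8 CPM, the last just above the highest Veh mouse.

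Red cells and their precursors carry AE1 as well. Of 7 erythroid markers tested, 6 fell in Veh, with a median log2 fold change over the 7 of -4.20, among them Hbb-bt (-4.59, SE 0.61), Alas2 (-4.40, SE 0.53) and Hba-a2 (-4.25, SE 0.60), and Epb42 rose (1.28, SE 0.31). Their sum was 2755 ± 2181 CPM in WT, 148 ± 138 in Veh and 1213 ± 276 in Anti-miR-21 (SD, n = 5, 6 and 6), and the ACEi mice A11, A13 and A23 had 377, 770.0 and 700.3 CPM, most abundantly Hbb-bs, and 1 of the genes had at most 3 counts in every Veh mouse. The WT mouse with the highest sum, A6 (6563 CPM), also had the highest Slc4a1, and the Veh mouse with the lowest sum, A9 (15.5 CPM), had the lowest Slc4a1 of its group. The other Veh mice, ordered by their sum, were A1 (67.3 CPM), A19 (71.0), A20 (152), A4 (178) and A16 (402). Their Slc4a1 was 4.09, 6.57, 15.3, 9.86 and 16.6 CPM in that order, out of step only for A20 and A4. In Anti-miR-21, A15 was highest in both. Outside Veh not all mice followed. A3 had the second highest sum in WT (2382 CPM) with the lowest Slc4a1 (42.9 CPM). A11 had the lowest sum in ACEi with the highest Slc4a1 (24.3 CPM). Erythroid RNA thus moved with Slc4a1 between Veh and the other groups and nearly throughout within Veh. It did not do so throughout within the other groups, and its part in the Slc4a1 result was not tested.

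**Figure D2:**
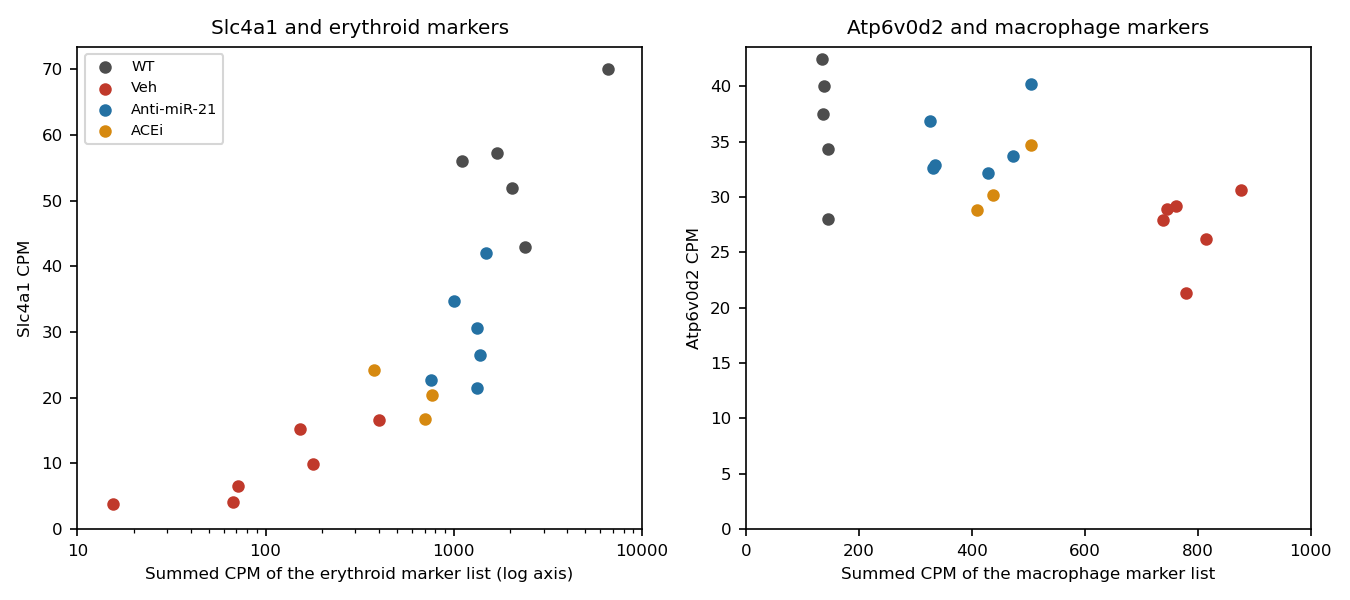
Each point is 1 of 20 mice, coloured by group. The left panel sets Slc4a1 (CPM) against the summed CPM of the erythroid list on a log axis, and the right panel sets Atp6v0d2 (CPM) against the summed CPM of the macrophage list on a linear axis. The Veh mice lie lowest on Slc4a1 and, but for 1 Veh mouse (402 CPM) above the lowest ACEi mouse (377 CPM), on the erythroid sum, and they have the highest macrophage sums (738 to 877 CPM) with Atp6v0d2 between 21.3 and 30.6 CPM.

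Slc26a4 encodes the chloride-bicarbonate exchanger pendrin. WT mice had 79.5, 71.2, 56.1, 45.7 and 72.5 CPM, and Veh mice A1, A4, A9, A16, A19 and A20 had 8.37, 17.3, 7.67, 25.9, 12.2 and 23.3 CPM. The groups were apart, and Slc26a4 fell 4.12-fold (log2 fold change -2.04, SE 0.25, adjusted p = 2.7e-07), with -2.59 on flow cell A alone and -1.27 on flow cell B alone. Anti-miR-21 mice ran from 34.5 to 50.1 CPM with a median of 40.9, and ACEi mice had 34.3, 40.8 and 42.7 CPM. Every treated mouse was above every Veh mouse. Slc4a9 followed the same order with smaller differences, from 59.6 to 93.1 CPM in WT, 26.5 to 50.5 in Veh, 52.1 to 61.3 in Anti-miR-21 and 50.8 to 64.9 in ACEi, and it fell 2.17-fold in Veh (log2 fold change -1.12, SE 0.14, adjusted p = 4.9e-07).

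Foxi1 had the smallest change after Atp6v0d2. WT mice had 51.8, 41.7, 37.5, 40.3 and 52.3 CPM, and Veh mice ran from 22.7 to 30.1 CPM with a median of 26.4. The groups were apart, and Foxi1 fell 1.70-fold (log2 fold change -0.77, SE 0.10, adjusted p = 9.5e-07). Anti-miR-21 mice ran from 29.5 to 43.5 CPM, overlapping Veh through A2, and ACEi mice had 39.7, 35.8 and 38.3 CPM.

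The ammonia transporters were both lower in Veh. Rhbg had 60.5, 56.2, 53.0, 44.8 and 50.0 CPM in WT and 9.49 to 19.6 CPM in Veh with a median of 15.0, a 3.54-fold fall (log2 fold change -1.82, SE 0.17, adjusted p = 7.8e-09). Rhcg had 164, 122, 109, 121 and 174 CPM in WT and 41.5 to 69.6 CPM in Veh with a median of 54.7, a 2.51-fold fall (log2 fold change -1.33, SE 0.13, adjusted p = 1.2e-08). Neither gene overlapped between the groups. Rhbg shares exons with Gm38392 on the same strand, which had 2.15 ± 1.72 CPM in WT, 0.572 ± 0.433 in Veh, 4.05 ± 2.36 in Anti-miR-21 and 0.625 ± 0.626 in ACEi (SD, n = 5, 6, 6 and 3). Gm38392 rose in Anti-miR-21 against Veh, as Rhbg did (log2 fold change 2.81, SE 0.85, adjusted p = 0.00765), and did not pass in Veh against WT (-1.90, SE 0.88, adjusted p = 0.0578).

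Anti-miR-21 mice had higher mean levels than Veh mice in all 10 genes. The largest differences were in Slc4a1, 3.17-fold higher (log2 fold change 1.66, SE 0.29, adjusted p = 6.6e-05), Slc26a4, 2.61-fold (1.38, SE 0.24, adjusted p = 5.0e-05), and Atp6v0a4, 2.08-fold (1.06, SE 0.14, adjusted p = 2.5e-06). Rhbg (0.96, SE 0.17), Rhcg (0.77, SE 0.12), Atp6v1g3 (0.65, SE 0.09), Slc4a9 (0.63, SE 0.14), Foxi1 (0.48, SE 0.10), Atp6v1b1 (0.47, SE 0.10) and Atp6v0d2 (0.35, SE 0.10) followed on the same log2 fold scale. In this test 10 of 10 rose, against 28.8% of all genes called higher and 59.2% called in either direction. In 9 of 10 the groups did not overlap, Foxi1 being the exception, and 18.6% of all genes were separated upward. The median log2 fold change was 0.71, beside -0.04 over all genes tested, and 10 of 10 were called both on flow cell A alone, where 28.2% of all genes were called higher, and without the 4 mice high in adipocyte markers, where 25.1% were. Under library totals the median of the 10 genes was 0.37, and 7 of 10 were called, the others being Foxi1 (0.13), Atp6v1b1 (0.13) and Atp6v0d2 (0.01), beside 2459 of all 17622 genes called higher, and the median of all genes moved to -0.38 and the share of calls that were higher from 48.6% to 20%.

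In ACEi mice 9 of 10 genes were higher than in Veh mice by the same test, and under library totals 6 of 10, with a median of 0.31 against 0.58 and without Atp6v1b1, Atp6v1g3 and Rhcg, beside 10.8% of all genes called higher there, where the median of all genes moved from -0.05 to -0.32 and the share of calls that were higher from 52.4% to 20.5%. Slc26a4 was 2.49-fold higher (log2 fold change 1.32, SE 0.28, adjusted p = 9.3e-04), Slc4a1 2.19-fold (1.13, SE 0.34, adjusted p = 0.013), Atp6v0a4 1.81-fold (0.86, SE 0.17, adjusted p = 4.4e-04) and Rhbg 1.75-fold (0.81, SE 0.20, adjusted p = 0.00298). Slc4a9 (0.63), Foxi1 (0.53), Atp6v1b1 (0.49), Rhcg (0.46) and Atp6v1g3 (0.37) also rose, and Atp6v0d2 did not pass (0.19, SE 0.12, adjusted p = 0.208) and lay at -0.08 under library totals. The background was 21.0% of all genes called higher and 40.1% called in either direction, and in 8 of 10 the groups did not overlap, where 19.8% of all genes were separated upward. With 3 ACEi mice these values were less precise than those of Anti-miR-21 against Veh. Leaving out A23, A11 or A13 ended the call for Atp6v1g3 (adjusted p = 0.119), Slc4a1 (0.0632) and Rhcg (0.089) in turn.

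The flow cells were not evenly spread over the ACEi comparison. The 2 Veh mice of flow cell B, A16 and A20, were the 2 highest Veh mice in 8 of the 10 genes, and 2 of the 3 ACEi mice came from that flow cell. With flow cell as a term in the model 9 of 10 were still called higher, beside 19.9% of all genes. Within flow cell B, with 2 mice in each group, the log2 fold changes of the 10 genes were all above 0 but ran only from 0.05 to 0.64 with a median of 0.34, and 1 of 10, Slc4a1, was called (0.51, SE 0.12, adjusted p = 0.0466), where 6.64% of all genes were called higher against 21.0% with all mice. Without the 3 Veh mice high in adipocyte markers, all of flow cell A, the median was 0.46 and 6 of 10 were called, beside 17.6% of all genes called higher. The call was lost there for Slc4a1 (0.71, adjusted p = 0.0902), Rhcg (0.37, 0.105) and Atp6v1g3 (0.30, 0.1). The Veh fall against WT was called for 10 of 10 within flow cell A and for 9 of 10 within flow cell B, with medians of -1.43 and -0.88, beside 32.1% and 25.4% of all genes called lower. Flow cell A held 1 ACEi mouse, so no comparison of ACEi was made there.

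**Figure D3:**
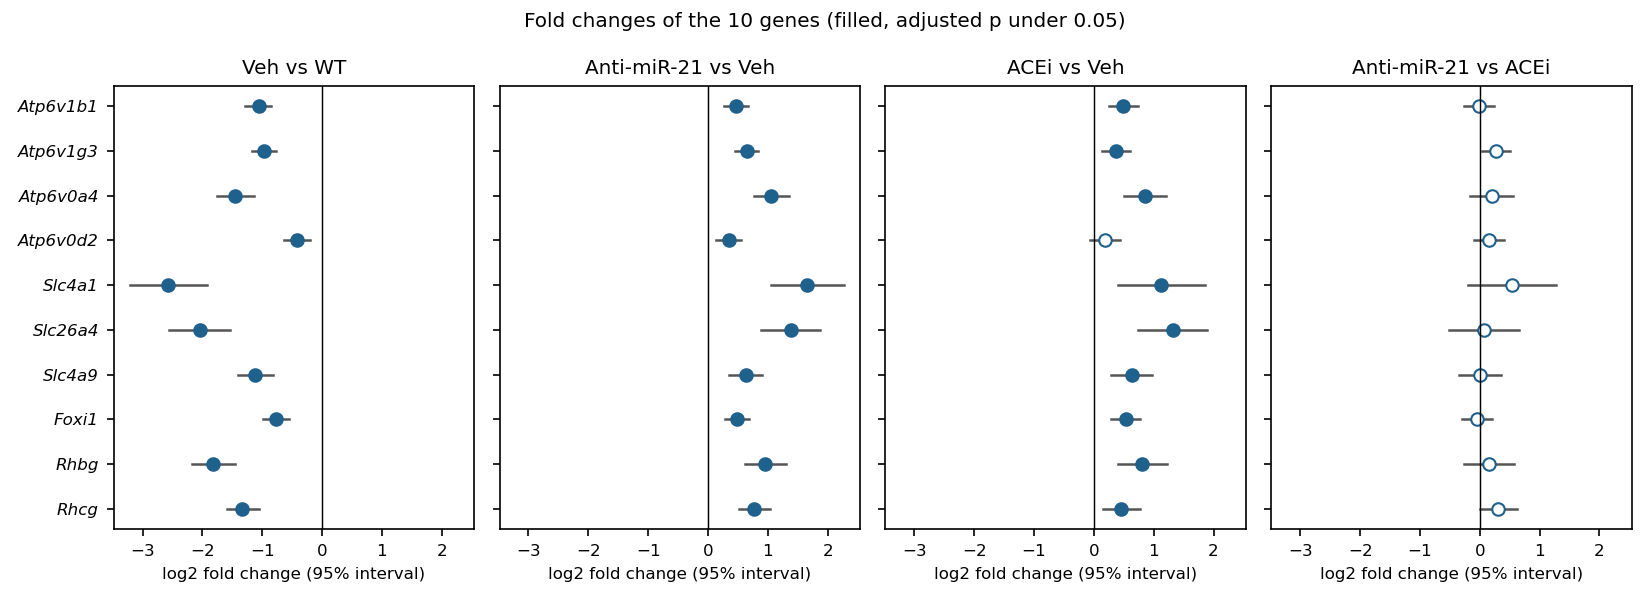
Each row is a gene and each panel a comparison, with the log2 fold change on the horizontal axis. Points are estimates from the edgeR fit of all 20 mice, lines are 95% intervals, and filled points have an adjusted p under 0.05. All 10 genes lie below 0 in Veh against WT and above 0 in both treatment comparisons with Veh on the TMM scale, Atp6v0d2 being the gene that turns under library totals, and no gene is filled between the treatments.

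Veh mice are the controls of both treatment comparisons, so the treatments were also set against each other. None of the 10 genes differed between Anti-miR-21 and ACEi by edgeR or by DESeq2 at an adjusted p under 0.05. At that threshold edgeR called 0.584% of all genes it tested, and DESeq2 called 224 higher and 213 lower of 27201. At an unadjusted p under 0.05, edgeR passed 1 gene, Atp6v1g3, with 25.9 ± 2.22 CPM in Anti-miR-21 and 21.5 ± 3.04 in ACEi (log2 fold change 0.27, 95% interval 0.03 to 0.51, adjusted p = 0.287), and DESeq2 passed 2, beside 14.5% and 10.5% of all genes they tested. Rhcg was higher in every Anti-miR-21 mouse (86.1 to 107 CPM) than in every ACEi mouse (72.0, 73.1 and 82.5 CPM), as were 4.19% of all genes, with a log2 fold change of 0.31 (SE 0.15, adjusted p = 0.351). The interval of Slc4a1 ran from -0.20 to 1.27 and that of Slc26a4 from -0.52 to 0.66 on the log2 scale.

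Neither treatment brought all of the genes to the WT level. In Anti-miR-21 against WT, 9 of 10 stayed lower, with a background of 19.8% called lower and 43.7% called in either direction, and the largest differences were Slc4a1 (log2 fold change -0.91, SE 0.29), Rhbg (-0.86, SE 0.17) and Slc26a4 (-0.66, SE 0.24). Atp6v0d2, at 95.3% of its WT mean, did not pass (-0.07, SE 0.10, adjusted p = 0.614), and 4 of 10 had no overlap, where 9.06% of all genes had none in that direction. Leaving out single mice ended the call for Atp6v0a4, Slc26a4 or Foxi1 in some fits, and the count then ran from 6 to 9. Of all genes, 2843 to 3644 were called lower in these fits, against 3496 with all mice. In ACEi against WT, 7 of 10 were lower, with a background of 22.5% called lower and 47.7% called in either direction, and the differences were largest in Slc4a1 (-1.44, SE 0.37), Rhbg (-1.02, SE 0.21) and Rhcg (-0.86, SE 0.16). Slc26a4 (-0.73, adjusted p = 0.0507), Foxi1 (-0.24, adjusted p = 0.122) and Atp6v0d2 (-0.22, adjusted p = 0.143) did not pass, and 7 of 10 had no overlap against 22.3% of all genes. With flow cell as a term Slc26a4 was called lower in ACEi (-0.80, adjusted p = 0.0333), as it was by DESeq2 (adjusted p = 0.0296), which made 8 of 10, beside 22.6% of all genes, and Atp6v0a4 lost its call in Anti-miR-21 (-0.37, adjusted p = 0.0515), which left 8 of 10, beside 18.1%. On library totals 3 of 10 and 4 of 10 were called lower, beside 5.66% and 7.63% of all genes, and without the mice high in adipocyte markers 9 of 10 and 8 of 10, beside 19.2% and 21.8%.

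Other subunits and accessory proteins of the pump, most of them made in all cells, gave 20 genes of 21 that could be tested. In Veh against WT, 17 fell and 3 rose on the TMM scale, with a median log2 fold change of -0.60, while under library totals 7 fell and 7 rose with a median of -0.02. The largest falls were in Atp6v1c2 (-1.73, SE 0.17, adjusted p = 1.6e-08), a C subunit that intercalated cells also use, Atp6v1a (-1.53, SE 0.10, adjusted p = 9.5e-11), the catalytic A subunit, and Atp6v1b2 (-1.07, SE 0.09, adjusted p = 1.4e-09), the B subunit of most cells. The 3 that rose were Tcirg1 (1.66, SE 0.10, adjusted p = 3.0e-11), the a3 subunit of osteoclasts and macrophages, Atp6v1g2 (0.86, SE 0.11, adjusted p = 1.1e-06), a neuronal G subunit, and Atp6v0a1 (0.13, SE 0.05, adjusted p = 0.0429), the a1 subunit, a call lost in DESeq2, under its size factors, without the mice high in adipocyte markers and without some single mice. Atp6v0a2 (-0.71, SE 0.08), Atp6v1g1 (-0.71, SE 0.08) and Atp6v0d1 (-0.49, SE 0.07) fell, and none of these 3 calls held under library totals, where Atp6v0d1 lay above 0. Against Veh, 15 of the 20 rose and 3 fell in Anti-miR-21 (median 0.43), and 15 rose and 2 fell in ACEi (median 0.42), while under library totals 8 rose and 5 fell (median 0.09), and 10 rose and 4 fell (median 0.15).

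**Figure D4:**
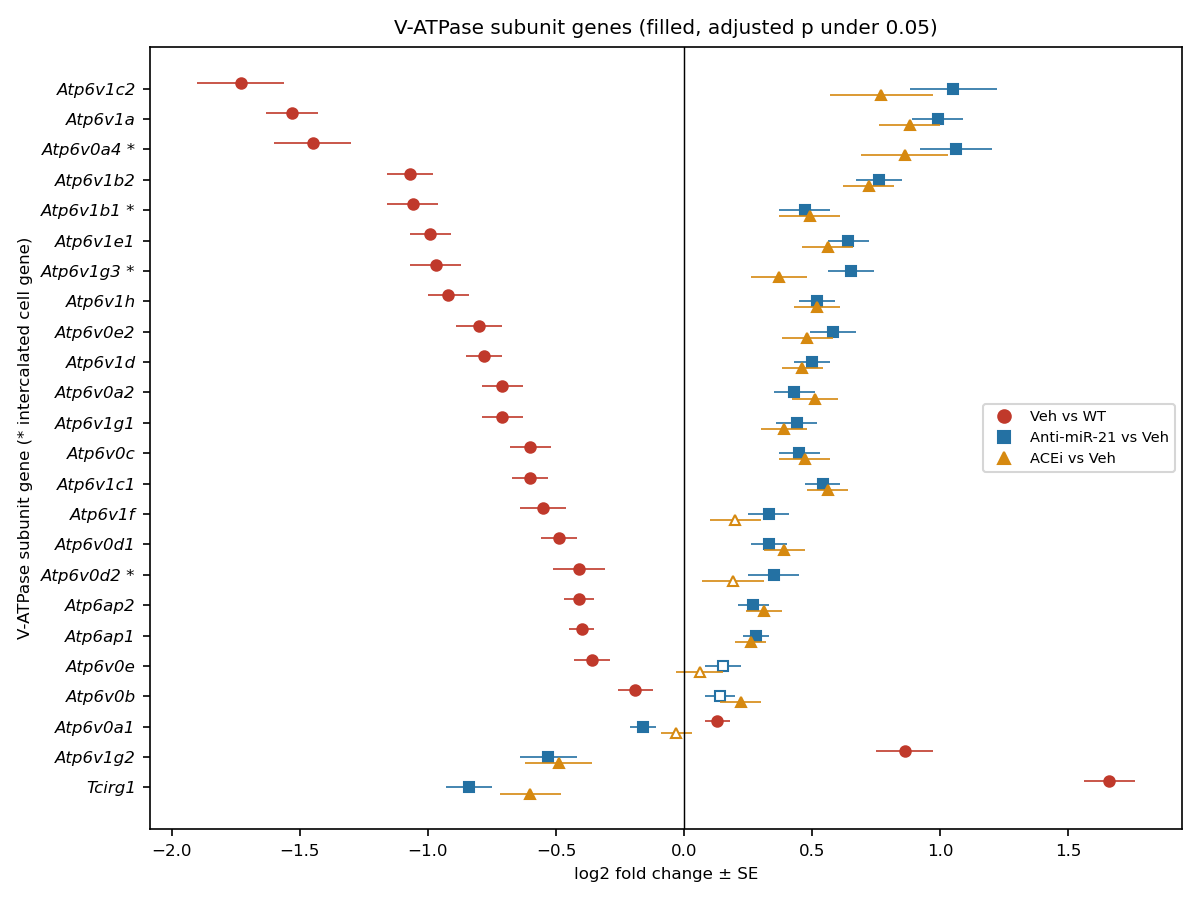
Each row is a subunit gene of the vacuolar H+-ATPase, ordered by its log2 fold change in Veh against WT, with an asterisk on the 4 intercalated cell genes. Points are log2 fold changes with SE for Veh against WT (circles) and for each treatment against Veh (squares and triangles), filled where the adjusted p is under 0.05. On this TMM scale most subunits lie left of 0 in Veh against WT and right of 0 under treatment, where for the 20 subunits without an asterisk library totals give 7 called on each side in Veh against WT and 5 and 4 called lower in Anti-miR-21 and ACEi, and Tcirg1 and Atp6v1g2 lie on the opposite sides.

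Ratios of paired genes within a mouse do not depend on the scale between libraries. Of 6 ratios tested in 3 comparisons by two-sided exact permutation tests, adjusted over all 18, the ratio of Atp6v0a4 to Atp6v0a1 passed in 2. Its log2 value was 1.69 ± 0.20 in WT (SD, n = 5), 0.09 ± 0.41 in Veh (n = 6), 1.34 ± 0.26 in Anti-miR-21 (n = 6) and 1.02 ± 0.07 in ACEi (n = 3). The a4 form was thus 3.03-fold lower relative to a1 in Veh (exact p = 0.00433, adjusted 0.039) and 2.38-fold higher in Anti-miR-21 than in Veh (exact p = 0.00216, adjusted 0.039), both the smallest p these groups allow. In ACEi it was 1.90-fold higher (exact p = 0.0238, the smallest possible, adjusted 0.0714). Leaving out 1 mouse took the adjusted p past 0.05 in 10 of 11 sets for Veh against WT and in 6 of 12 for Anti-miR-21 against Veh, with log2 differences from -1.74 to -1.49 and from 1.13 to 1.39. In all of these sets the exact p was the smallest possible (0.00794 to 0.00952 in Veh against WT and 0.00433 in Anti-miR-21 against Veh), so it could go no lower. At that same 0.00433 the adjusted p ran from 0.026 to 0.0714, since it also depends on the other tests adjusted with it. Both genes were read in whole kidney, and the part of shifts in cell makeup in their ratio was not tested.

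The other subunit pairs did not pass the adjusted threshold in any of the 3 comparisons. Atp6v1b1 relative to Atp6v1b2 had a log2 value of -2.04 ± 0.16 in WT and -2.03 ± 0.18 in Veh, a difference of 0.01 (exact p = 0.939), beside falls of both B subunits on the TMM scale. Against Veh the same ratio differed by -0.27 in Anti-miR-21 (exact p = 0.0195, adjusted 0.0714) and by -0.22 in ACEi (exact p = 0.0714, adjusted 0.129). Atp6v0d2 relative to Atp6v0d1 differed by 0.08 between Veh and WT (exact p = 0.55), and against Veh by 0.02 in Anti-miR-21 (exact p = 0.9) and by -0.20 in ACEi (exact p = 0.262). Atp6v1g3 relative to Atp6v1g1 differed by -0.26 between Veh and WT (exact p = 0.039, adjusted 0.0877), by 0.21 between Anti-miR-21 and Veh (exact p = 0.0346, adjusted 0.0877), which passed on flow cell A alone, and by -0.01 between ACEi and Veh (exact p = 0.929). Slc26a4 relative to Slc4a1, a beta-cell over an alpha-cell exchanger, was 0.21 ± 0.44 in WT and 0.82 ± 0.17 in Veh, a difference of 0.61 that missed the adjusted threshold (exact p = 0.0216, adjusted 0.0714) and passed it without the WT mouse A3 (0.78, adjusted 0.0487). As a ratio of FPKM the difference was 0.62 (adjusted 0.0779), and with 1 added to each FPKM it was 0.33 (adjusted 0.205). Against Veh the CPM ratio of these exchangers differed by -0.32 in Anti-miR-21 (exact p = 0.0563, adjusted 0.113) and by 0.13 in ACEi (exact p = 0.548). Atp6v1b1 relative to Aqp2, the water channel of the neighbouring principal cells, differed by -0.48 between Veh and WT (exact p = 0.238) and by 0.76 between Anti-miR-21 and Veh (exact p = 0.0108, adjusted 0.0649).

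**Figure D5:**
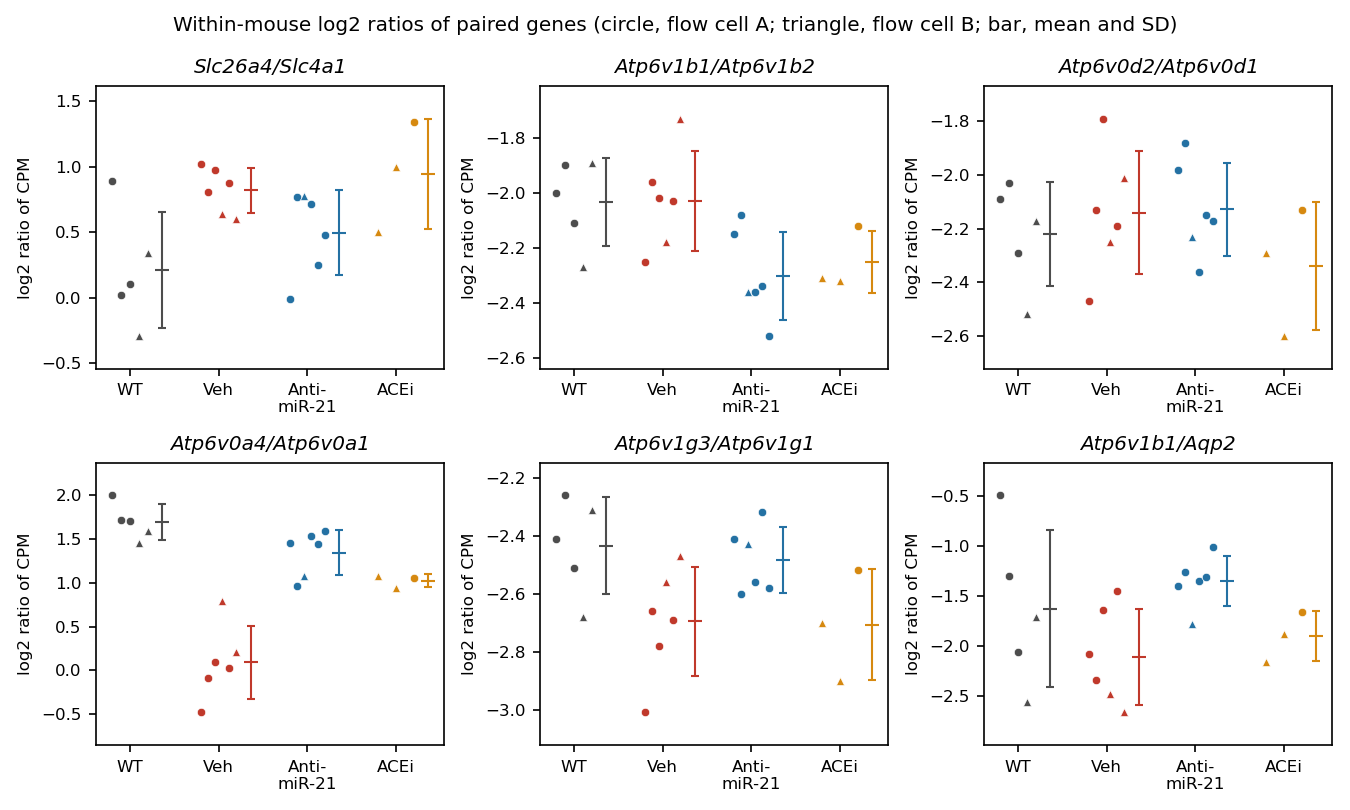
Each panel plots the log2 ratio of the CPM of 2 genes within each mouse, by group, with the mean and SD beside the points (circles, flow cell A; triangles, flow cell B), on vertical axes that differ between panels. The ratio of Atp6v0a4 to Atp6v0a1 is 0.09 in Veh against 1.69 in WT, with no overlap, while that of Atp6v1b1 to Atp6v1b2 is close to -2.03 in both.

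A further 17 genes known from intercalated cells, all tested, were less uniform. In Veh against WT, 9 fell and 5 rose on the TMM scale, with a median log2 fold change of -0.30, while under library totals 3 fell and 9 rose with a median of 0.29. The falls were led by Insrr (-2.21, SE 0.22, adjusted p = 1.6e-08), a receptor that senses alkaline fluid in beta cells, Oxgr1 (-1.95, SE 0.17, adjusted p = 3.6e-09), the 2-oxoglutarate receptor of beta cells, and Car12 (-1.43, SE 0.16, adjusted p = 1.1e-07), a carbonic anhydrase. The rises were led by P2ry14 (1.45, SE 0.27, adjusted p = 7.8e-05), a UDP-glucose receptor, Dmrt2 (0.48, SE 0.15, adjusted p = 0.00587), a transcription factor, and Slc4a8 (0.41, SE 0.12, adjusted p = 0.00351), a sodium-driven exchanger. In Anti-miR-21 against Veh 7 rose and 5 fell, and in ACEi against Veh 5 rose and 1 fell, while under library totals 3 rose and 6 fell, and 3 rose and 3 fell (medians of -0.11 and -0.08). Dmrt2 and P2ry14 were among the 5 that fell under Anti-miR-21.

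Notch signals from intercalated to principal cells keep the latter from turning into intercalated cells. Of 12 genes of this pathway and of collecting duct fate, 9 rose in Veh against WT and 1 fell, with a median log2 fold change of 0.58, beside 6869 of all 17622 genes called higher. Under library totals 11 rose and none fell, beside 11623 of all 17622 genes called higher. The receptors Notch1 (1.14, SE 0.15, adjusted p = 5.8e-07) and Notch3 (1.13, SE 0.10, adjusted p = 3.1e-09) and the ligand Jag1 (1.05, SE 0.12, adjusted p = 6.4e-08) led the rises. Mib1, a ubiquitin ligase needed for ligand activity, fell (-0.16, SE 0.06, adjusted p = 0.023), a call that was lost under upper-quartile scaling, under both other count filters and without some single mice, and that turned to a called rise under library totals and in FPKM, and Dll1 (-0.01) and Elf5 (-0.00), a factor of principal cells, did not pass. In Anti-miR-21 against Veh 8 fell and none rose, and in ACEi 7 fell and none rose. Of all 17622 genes, 5367 and 3370 were called lower in these comparisons. Under library totals 12 and 10 of the list fell, beside 9861 and 7389 of all genes called lower. These genes are also expressed in many other cells of the kidney.

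Principal cells are the neighbours of intercalated cells in the collecting duct and reabsorb water and sodium. Of 8, 5 fell in Veh on the TMM scale, with a median log2 fold change of -0.51, and under library totals 2 fell and 2 rose. The falls were led by Aqp4 (-1.96, SE 0.34), Aqp3 (-1.46, SE 0.22) and the vasopressin receptor Avpr2 (-0.80, SE 0.14), the last a call lost under library totals. Aqp2 did not pass (-0.57, SE 0.27, adjusted p = 0.0605), and Scnn1b, a subunit of the sodium channel, was at -0.07 (SE 0.10). In Anti-miR-21 against Veh 2 of 8 rose, Aqp3 and Scnn1g, and in ACEi 2 rose and Aqp4 fell, while under library totals none rose and 4 fell in Anti-miR-21 (median -0.22, against 0.11 on the TMM scale), and 1 rose and 1 fell in ACEi. The difference between these lists and the 10 genes was not tested.

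Markers of other tubule segments and cells moved in the same comparison. All 5 proximal tubule genes fell in Veh (median log2 fold change -2.40), as did 4 of 6 genes of the distal convoluted and connecting tubule (-1.65, 2 rose) and 3 of 4 of the thick ascending limb (-1.0, 1 rose). All 5 fibroblast genes (2.03), all 4 tubule injury genes (6.10), 4 of 5 adipocyte genes (3.69) and 3 of 4 podocyte genes (0.30) rose, and of 4 endothelial genes 1 rose and 2 fell, against 2 and 0 under library totals. In the other lists of this paragraph the direction of most calls held on that scale, where 5 of 5 proximal tubule, 4 of 6 distal and 2 of 4 thick ascending limb genes fell. The part of these shifts in cell makeup in the values of the 10 genes was not tested.

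In Anti-miR-21 against Veh, 5 of 5 proximal tubule, 4 of 6 distal, 3 of 4 thick ascending limb, 3 of 4 podocyte, 2 of 4 endothelial and 6 of 7 erythroid genes rose, and 4 of 5 fibroblast, 6 of 6 macrophage, 4 of 6 osteoclast-like and 3 of 4 injury genes fell. One thick ascending limb gene and 1 podocyte gene fell, 1 osteoclast-like gene rose, and 0 of 5 adipocyte genes passed. In ACEi against Veh, 5 of 5 proximal tubule, 4 of 6 distal, 1 of 4 thick ascending limb, 2 of 4 podocyte, 2 of 4 endothelial and 5 of 7 erythroid genes rose, and 3 of 5 fibroblast, 6 of 6 macrophage, 4 of 6 osteoclast-like, 4 of 5 adipocyte and 1 of 4 injury genes fell. One distal gene fell and 1 osteoclast-like gene rose. Under library totals some of these balances changed. In Anti-miR-21 the distal list then had 4 higher and 2 lower, and the thick ascending limb and podocyte lists had 2 higher and 1 lower each. In ACEi the thick ascending limb list had 1 higher and 1 lower, the podocyte list none higher and 1 lower, and the endothelial list no call.

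Levels were compared between genes per length, as the deposited FPKM. In WT the order ran from Atp6v0a4 (67.6 ± 8.40 FPKM, SD, n = 5) and Rhcg (54.0 ± 10.2) over Atp6v1b1 (41.6 ± 4.63), Rhbg (23.7 ± 1.35), Slc4a9 (23.4 ± 3.71), Slc26a4 (17.3 ± 3.31), Foxi1 (15.6 ± 2.08) and Atp6v1g3 (14.2 ± 1.38) to Atp6v0d2 (12 ± 1.59) and Slc4a1 (10.2 ± 2.10). Rhbg and Slc4a9 could not be put in order, since Rhbg was the higher in only 2 of 5 mice. In 3 further neighbouring pairs, those led by Atp6v0a4, Slc26a4 and Atp6v0d2, the order held in 4 of 5 mice. The authors mark the FPKM entries of Atp6v0a4 and Rhbg as confounded with another gene.

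Within groups the 10 genes varied together in part. Over the deviations of log2 CPM from the group mean in 20 mice, Pearson's r between pairs of the 10 genes ran from 0.12 to 0.90 with a median of 0.58 over 45 pairs, as a description of mice that share library and scale. The highest pair was Slc26a4 with Slc4a9. In Veh the mouse A1 was lowest in 7 of the 10 genes and A9 in 3, and A16 was highest in 6. Among all 17621 other genes, the most like Slc26a4 was Insrr (r = 0.96), followed by Nat8f2 (0.94) and Slc22a8 (0.94), a transporter of the proximal tubule. Slc4a9 was followed most closely by Etnppl (0.92), Slc26a4 (0.90) and Oxgr1 (0.88). Slc4a1 was most like Cgnl1 (0.95), Slc22a13 (0.93) and Car5a (0.92), none of them in the erythroid list or in either list of intercalated cell genes.

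The genes most like the pump subunits were Cdc23 (0.91), Mppe1 (0.87) and Prps2 (0.85) for Atp6v1b1, Tbc1d13 (0.95), Atl2 (0.93) and Nampt (0.92) for Atp6v0a4, Cops2 (0.82), 1300002E11Rik (0.81) and Uqcrb (0.81) for Atp6v1g3, and Kcne1 (0.85), Zfp648 (0.83) and Cyp2d22 (0.83) for Atp6v0d2. Foxi1 had the weakest best match, with St8sia6 (0.81), Hhatl (0.81) and Fmr1nb (0.79). Rhbg was most like Suclg1 (0.91), Sucla2 (0.90) and Crat (0.89), which are mitochondrial enzymes, and Rhcg was most like Sgk2 (0.85), Gm10925 (0.84) and Gm26697 (0.84). Of the 100 genes most like Atp6v1b1, 3 were among the 10 genes, and for Slc4a1, Atp6v0a4, Foxi1 and Rhbg none was.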

How the data were processed

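Total RNA of 20 kidneys was sequenced on the Illumina HiSeq 2000 as 100 bp paired-end reads. Per the labels and the study's methods, the authors aligned reads to GRCm38 in OmicSoft Studio and deposited estimated counts per Ensembl gene, of which 29.1% of the positive values were not whole, and FPKM per gene. Alignments per mouse ran from 70004591 to 73294858. The counts were rounded, genes were kept by filterByExpr (minimum count 10, minimum total 15) and scaled by TMM, and all 20 mice entered one quasi-likelihood fit (edgeR 4.0.16, R 4.3.3) with an adjusted p threshold of 0.05 over 17622 genes. SEs are the log2 fold change over the square root of F, and intervals are 95%. On data simulated for Veh against WT (17102 genes), 92.5% of 200 genes with a log2 change of 1 were recovered, with 90% and 86.5% for Anti-miR-21 and ACEi against Veh, and 4.64%, 4.76% and 5.98% of the calls were unchanged genes. The simulation changed only those 200 genes and gave all genes the same spread. In the data 73.0% of genes were called in Veh against WT, so these shares do not measure the error there. Ratios used log2 CPM with a prior count of 2 (scipy 1.17.1).

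The 10 genes and all other lists were chosen with earlier results of these data known, and 1 erythroid marker is not reported here. From the other lists the text gives counts and names the 3 genes of largest and smallest log2 fold change in Veh against WT, with the paralogues of the pump subunits and Aqp2, or fewer. Likeness was Pearson's r of deviations from group means. FPKM were also tested as log2(FPKM + 1) and log2(FPKM + 0.1) in limma 3.58.1, with the study's criterion of p under 0.01 and a fold of 1.2. FPKM use library totals, and 3 FPKM columns of no listed sample, ramipril mice in the deposited library table, were not used. Other alternatives were DESeq2 1.42.0, other scalings and filters, flow cell as a term or alone, and each mouse left out. The alternatives of flow cell B alone and without mice high in adipocyte markers, and ratios of FPKM with no pseudocount, were chosen after seeing the data. Coordinates of genes come from the GENCODE annotation of GRCm38, and 98.8% of gene identifiers had a symbol. The least difference between 2 mice of a group was 14.2 times that of counting noise (chi-square per degree of freedom), so no library repeated another. Nothing states whether counting used strand. The lowest value of the 10 genes, 3.86 CPM of Slc4a1 in the Veh mouse A9, rested on 138 counts. The SD of Slc4a1 in Veh was 59.1% of its mean.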

Additional observations from a re-analysis of the deposited data

Results flagged for a closer look

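Within groups of 5 or 6 mice, 48 sets of values (the CPM of the 10 genes and the 6 ratios in WT, Veh and Anti-miR-21) were checked for a mouse far from the others, and 1 stood apart, where chance alone gives about 1 in 20. Atp6v1b1 in the Anti-miR-21 mouse A10 was 63.9 CPM, while the other 5 mice of the group lay between 70.4 and 74.2 CPM. A10 is the only Anti-miR-21 mouse of flow cell B. The part of the flow cell in this value was not tested.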

How the results depend on the processing

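Atp6v0d2 in Veh against WT reversed, to a log2 fold change of 0.17 under library totals, 0.17 as log2(FPKM + 1) and 0.18 as log2(FPKM + 0.1). In Anti-miR-21 against Veh, both FPKM settings called 6 genes higher (8.42% of all genes with 1 added and 9.11% with 0.1). In ACEi against Veh they called 3 and 3 (6.70% and 7.10%), and flow cell B alone called 1 (6.64%). In Anti-miR-21 against WT, library totals called 3 lower and the FPKM settings 2 and 2 (2.15% and 2.34%), and in ACEi against WT they called 4, 3 and 3 (3.96% and 3.95% for FPKM). The FPKM settings use another threshold and library totals together. Leaving out 1 mouse gave 10 to 10 calls in Veh against WT and in Anti-miR-21 against Veh, 8 to 9 in ACEi against Veh, 6 to 9 in Anti-miR-21 against WT and 6 to 9 in ACEi against WT. These fits tested 17529 to 18006 genes. Of all genes they called 5829 to 5936 lower in Veh against WT, 4765 to 5271 higher in Anti-miR-21 against Veh and 2987 to 4195 higher in ACEi against Veh. Lower than WT were 2843 to 3644 in Anti-miR-21 and 2967 to 3957 in ACEi.

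On flow cell A alone, Slc26a4 to Slc4a1 in Anti-miR-21 against Veh became -0.48 (adjusted p = 0.0476, exact permutation test), Atp6v1g3 to Atp6v1g1 became 0.29 and Atp6v1b1 to Aqp2 0.61, all past the threshold, and Atp6v0a4 to Atp6v0a1 in Veh against WT became -1.92 and no longer passed (adjusted p = 0.114), with fewer mice. Over all mice Slc26a4 to Slc4a1 in Anti-miR-21 against Veh was -0.32 (adjusted p = 0.113), with -0.33 (adjusted p = 0.108) as a ratio of FPKM and -0.10 (adjusted p = 0.626) with 1 added to each FPKM. With 1 mouse left out, Atp6v0a4 to Atp6v0a1 ran from -1.74 to -1.49 in Veh against WT and from 1.13 to 1.39 in Anti-miR-21 against Veh, Slc26a4 to Slc4a1 from 0.48 to 0.78 in Veh against WT, and Atp6v1b1 to Aqp2 from 0.65 to 0.89 in Anti-miR-21 against Veh, where it passed without A10.

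Over 1320 values of single genes under the alternatives, 1173 kept their direction and side of the threshold, 104 lost the call, 7 gained it, 3 reversed and 33 uncalled values changed sign. No paired analysis was possible because each mouse has a number of its own and nothing in the labels pairs mice between groups. The ACEi group has 3 mice, and flow cell B holds 2 mice each of WT, Veh and ACEi and 1 of Anti-miR-21.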
